A study of Homo sapiens with 6 samples.

Results

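The genes described here are 53 human genes that copy DNA, build the mitotic spindle and end mitosis: 12 S phase genes (replication licensing, the sliding clamp and nucleotide supply), 29 G2/M genes (cyclins, mitotic kinases, kinetochore proteins and motors) and 12 genes of the anaphase-promoting complex (APC/C), a ubiquitin ligase, and its partners. They were chosen by function, as a list of symbols, with earlier results of these data known. The shares given below are therefore descriptions. A probe was taken for a gene when the probe's RefSeq accession carried the gene's symbol. Of the 53 genes, 52 matched a probe on the array, with 66 probes in all. UBE2C, an APC/C gene of the list, matched no probe and was not analysed here. All 66 probes were well above background on all 6 arrays, so no member passed a filter through 1 group alone.

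The arrays compared CAL-27 cells, an established line from a squamous carcinoma of the human tongue, that received a negative control shRNA (shCtrl, n = 3) or 1 directed at XBP-1s (shXBP-1s, n = 3). XBP-1s is the spliced, active form of XBP1, a transcription factor of the unfolded protein response, and the labels name no drug, dose or time for either group. Cy3-labelled total RNA of each sample was read on its own 1-colour Agilent array. The methods describe stable transduction of the cells with the shRNA against XBP-1s. The 3 samples of a group are not said to come from separate transductions, so p-values measure the spread between these samples, which may be technical. The cells were not sorted by cell cycle phase, so fewer cycling cells and less RNA per cycling cell cannot be told apart.

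A level below is the log2 signal of a probe minus the 75th percentile over the array's non-control spots, and a gene is read from its brightest tested probe. A fold change is the shXBP-1s mean minus the shCtrl mean on that log2 scale, with the standard error (SE) of the limma fit. A gene passed the test at a Benjamini-Hochberg adjusted p below 0.05 over all 27624 tested probes, and is called lower or higher only then. The 75th percentile was 687, 761 and 755 on shCtrl replicates 1, 2 and 3. On shXBP-1s replicates 1, 2 and 3 it was 983, 895 and 792. Lower and higher therefore mean relative to the percentile of the array. Before scaling, PCNA read 6700, 7490 and 7336 in shCtrl and 6612, 5992 and 5387 in shXBP-1s. TYMS, also called lower below, read 7240, 7999 and 8153 against 8330, 7839 and 7323, so its unscaled groups overlapped. Of the 16821 tested genes, 27.5% passed as lower and 18.9% as higher, so a share of that size among the members is the background of these arrays, and the median log2 fold change over all tested genes was -0.04. XBP1 itself lay at 1.88, 1.85 and 1.87 on the shCtrl arrays and at -0.50, -0.54 and -0.52 on the shXBP-1s arrays, with a log2 fold change of -2.39 (SE 0.0408, adjusted p = 2.81e-07). Its probe is not said to separate the spliced from the unspliced transcript. The labels name no slide, and arrays that shared a scan identifier were taken to share a slide. By that grouping slide 1 held shCtrl replicates 2 and 3, and slide 2 held shCtrl replicate 1 beside all 3 shXBP-1s samples. A fit with the slide as a block therefore compares the 3 shXBP-1s arrays with shCtrl replicate 1 alone. With that block the shares of all tested genes that passed were 20.9% lower and 14.7% higher. All 10 squamous epithelial markers were well above background on all 6 arrays, among them the keratins KRT5 and KRT14, and 7 of them passed as higher and none as lower. Their summed level (linear, relative to the 75th percentile) ran from 117.6 to 124.4 on shCtrl and from 152.0 to 177.8 on shXBP-1s. By their brightest probes the 7 leukocyte markers with a probe were also well above background on all arrays, though some other PTPRC probes were not. Their summed level ran from 4.69 to 6.58 on shCtrl and from 3.49 to 3.75 on shXBP-1s. That sum follows CD14 (log2 fold change -0.84), and members of the list went both ways, with CD2 and CD68 passing as higher by their brightest probes. Of 8 fibroblast markers 6 were, with sums of 0.986 to 1.08 and 0.716 to 0.730, and there too the members split, COL1A1 (-0.63) and PDGFRB (-1.28) passing as lower and LUM (1.94), DCN (1.43) and FAP (1.76) as higher. Of 6 endothelial markers 5 were, with sums of 0.229 to 0.296 and 0.271 to 0.291, and none passed. The part of these marker shifts in the results was not tested.

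A cell prepares each origin of replication once per cycle: the origin recognition complex, CDC6 and CDT1 load the MCM2-7 helicase in G1, and the helicase is switched on in S phase, where PCNA clamps the polymerase to DNA. In G2 and mitosis, cyclin B with CDK1 drives entry, kinetochore proteins attach chromosomes to microtubules, and the checkpoint proteins hold back the APC/C until every chromosome is attached. Transcription of the early genes is classically tied to E2F factors, and that of the late genes to the cell cycle homology region (CHR) and CCAAT boxes, read by the DREAM and MuvB complexes with B-MYB or FOXM1 and by NF-Y.

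The promoters of the members show both classes. Promoter sequence came from RefSeq (GRCh38.p14), as windows of 300 bases from 250 before to 50 after a start site, and 46 of the 53 members had at least 1 window. The searched E2F letters were TTTCCCGC, TTTGGCGC, TTTCGCGC and TTTGCCGC on either strand. At least 1 window held them in 8 of the 10 S phase genes with a window (80%), in 3 of 25 G2/M genes (12%) and in 2 of 11 APC/C genes (18.2%), against 5.87% of the 13151 tested genes with a window and 4.41% of all their windows. The following stretches of 100 bases, printed 5′ to 3′ on the gene's strand with the E2F letters in capitals, are those of 6 S phase genes that were lower in shXBP-1s. They lie at chr6:52284843-52284942 (MCM3, minus strand), chr2:135876514-135876613 (MCM6, minus), chr7:100101498-100101597 (MCM7, minus), chr20:5126623-5126722 (PCNA, minus), chr16:88803689-88803788 (CDT1, plus) and chr18:657553-657652 (TYMS, plus).
MCM3: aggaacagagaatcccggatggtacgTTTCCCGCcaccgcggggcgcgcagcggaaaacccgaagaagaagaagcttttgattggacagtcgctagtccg
MCM6: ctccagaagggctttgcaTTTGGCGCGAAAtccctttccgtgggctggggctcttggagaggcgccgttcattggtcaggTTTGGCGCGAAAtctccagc
MCM7: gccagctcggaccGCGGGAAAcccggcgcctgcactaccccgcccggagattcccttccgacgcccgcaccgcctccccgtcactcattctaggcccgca
PCNA: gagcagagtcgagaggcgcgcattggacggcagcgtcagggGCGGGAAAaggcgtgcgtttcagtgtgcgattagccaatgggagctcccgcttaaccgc
CDT1: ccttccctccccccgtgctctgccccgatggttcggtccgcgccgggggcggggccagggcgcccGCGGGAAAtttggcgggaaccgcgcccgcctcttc
TYMS: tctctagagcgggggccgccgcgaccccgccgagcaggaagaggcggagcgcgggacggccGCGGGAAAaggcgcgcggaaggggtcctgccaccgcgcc
In MCM6 the letters stand as a pair of overlapping matches on opposite strands, and that pair occurs at both capitalised places. In MCM7, PCNA, CDT1 and TYMS the match is GCGGGAAA, the reverse complement of TTTCCCGC.

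The CHR letters, TTTGAA or TTCGAA on either strand, were found in 17 of the 25 G2/M genes (68%), in 1 of 10 S phase genes (10%) and in 5 of 11 APC/C genes (45.5%), against 16.6% of the tested genes with a window. CCAAT on either strand was found in 20 of 25 G2/M genes (80%), 7 of 10 S phase genes (70%) and 6 of 11 APC/C genes (54.5%), against 42.5%. The stretches below, from -100 to -1, have CHR and CCAAT letters in capitals and show 3 G2/M genes that were lower in shXBP-1s beside PLK1, a G2/M gene that did not pass. They lie at chr15:59105046-59105145 (CCNB2, plus strand), chr10:92593030-92593129 (KIF11, plus), chr10:128126424-128126523 (MKI67, minus) and chr16:23678789-23678888 (PLK1, plus).
CCNB2: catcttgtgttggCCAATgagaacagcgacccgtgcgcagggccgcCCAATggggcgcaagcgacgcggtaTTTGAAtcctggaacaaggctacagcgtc
KIF11: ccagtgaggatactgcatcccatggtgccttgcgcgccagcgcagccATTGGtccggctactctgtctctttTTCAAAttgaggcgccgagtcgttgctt
MKI67: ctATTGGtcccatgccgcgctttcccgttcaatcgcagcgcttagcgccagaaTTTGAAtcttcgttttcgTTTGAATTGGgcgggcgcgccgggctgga
PLK1: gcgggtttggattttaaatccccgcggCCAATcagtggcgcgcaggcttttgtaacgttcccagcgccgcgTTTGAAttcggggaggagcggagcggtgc
In MKI67 the second CHR match runs into a CCAAT box read on the other strand. The XBP1 core letters TGACGTG were in a window of 1 member, ANAPC11, against 3.04% of tested genes with a window. The shorter letters CCACG of the ER stress response element were in all 10 S phase genes with a window, in 14 of 25 G2/M genes (56%) and in 9 of 11 APC/C genes (81.8%), against 53.2%. A match of letters is a description of the window and not a mapped binding site.

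Nearly all S phase genes were lower in shXBP-1s. Of 12 genes, 11 passed as lower, none as higher and 1 did not pass, where 27.5% of all tested genes were lower. Their median log2 fold change was -0.46, and they ranged from -0.58 to -0.11, so all 12 lay below 0, as 55% of all tested genes did. None reached a 2-fold change, which 2.88% of all tested genes passed in the lower direction and 2.3% in the higher. The groups did not overlap for 11 of the 12, all lower, against 32.2% of tested genes. Averaged over the 12 genes, the log2 level was 1.33, 1.31 and 1.35 on shCtrl replicates 1, 2 and 3 and 1.00, 0.93 and 0.84 on shXBP-1s replicates 1, 2 and 3.

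**Figure D1:**
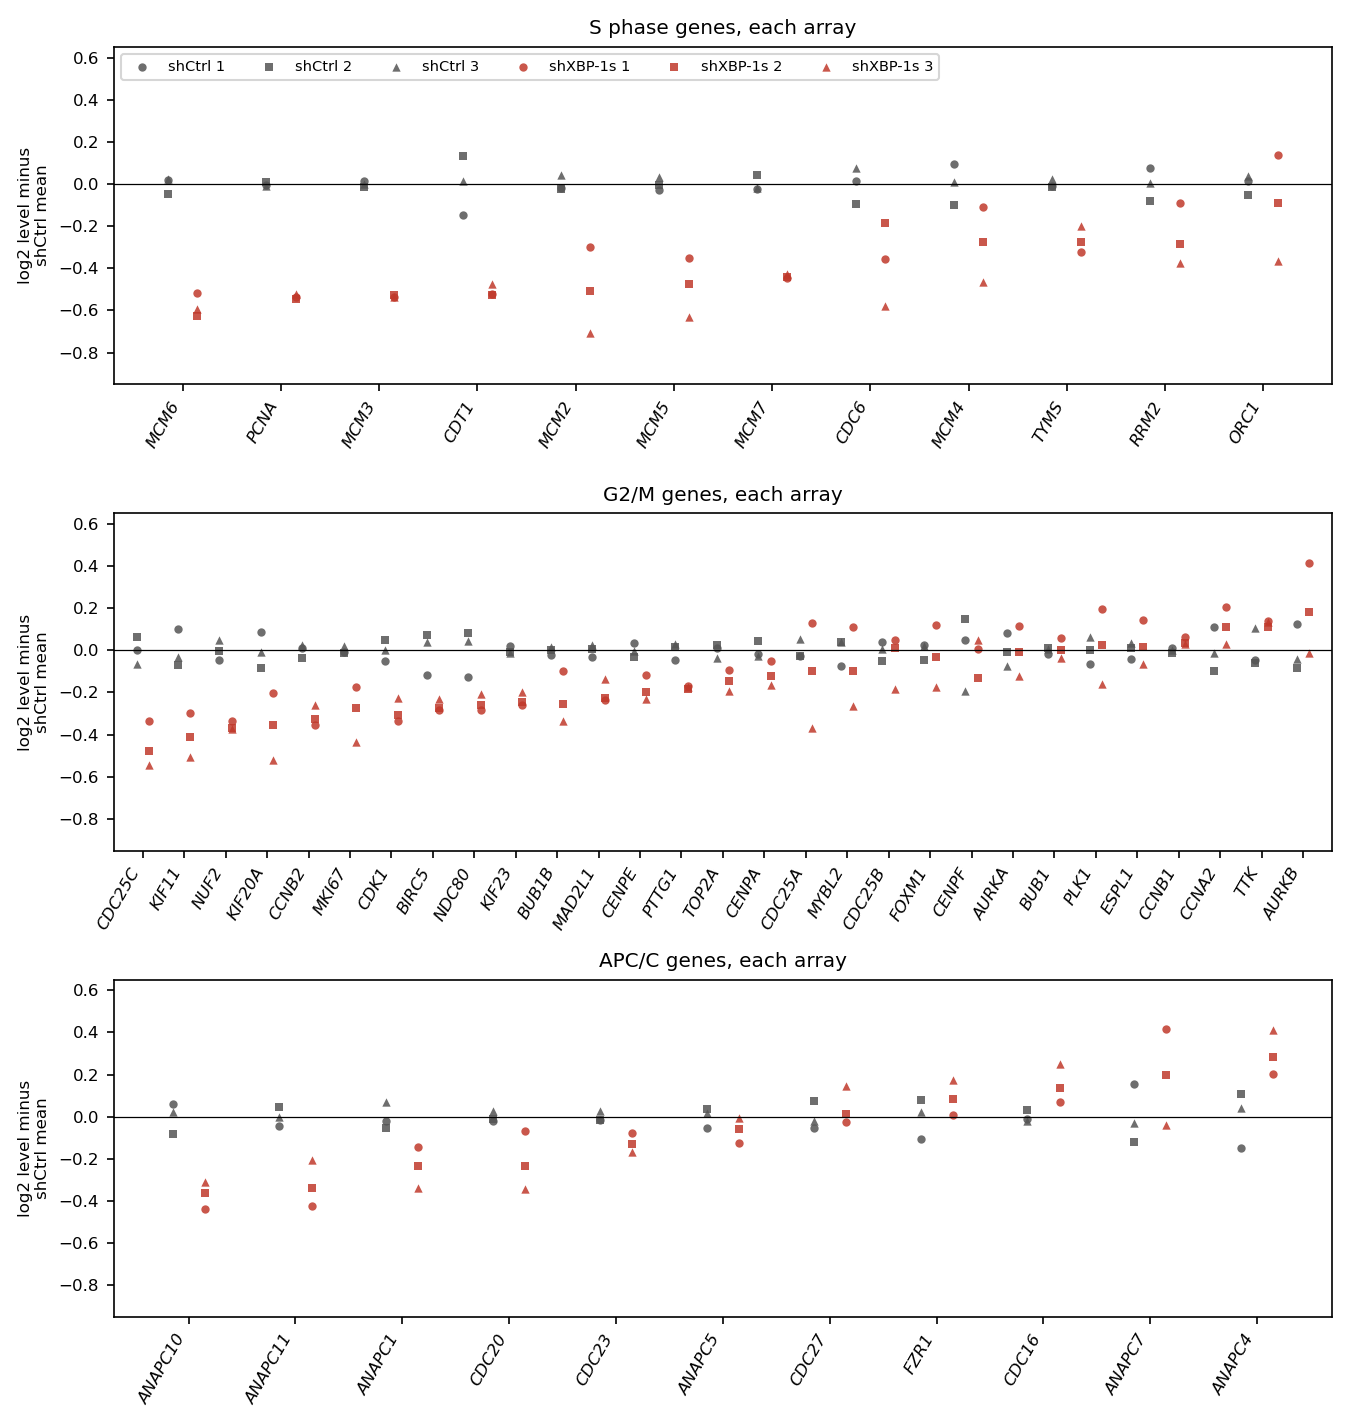
Log2 level of each member on each of the 6 arrays, minus the shCtrl mean of that gene (vertical axis, log2 units), for the S phase, G2/M and APC/C genes (horizontal axes, ordered by fold change); grey marks are shCtrl and red marks shXBP-1s, with the symbol shape giving the replicate. The red marks lie below the grey ones for 11 of 12 S phase genes, while the G2/M and APC/C panels spread from below to above 0.

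All 6 subunits of the MCM2-7 helicase, the ring that unwinds DNA ahead of the fork, passed as lower, with a median log2 fold change of -0.49. MCM6 fell the most of all 52 members: its levels were 2.49, 2.42 and 2.49 on the shCtrl arrays and 1.95, 1.84 and 1.87 on the shXBP-1s arrays. The mean was 67.0% of that in shCtrl, a log2 fold change of -0.58 (SE 0.0479, adjusted p = 4.71e-05), and the groups stood well apart. MCM3 was the tightest of the subunits, at 3.29, 3.26 and 3.27 in shCtrl and 2.74, 2.75 and 2.74 in shXBP-1s. Its log2 fold change was -0.53 (SE 0.0400, adjusted p = 2.90e-05) and left a clear gap between the groups. MCM2 fell by as much but with a wide spread in shXBP-1s, from 0.84, 0.84 and 0.90 in shCtrl to 0.56, 0.35 and 0.15. Its log2 fold change was -0.50 (SE 0.0946, adjusted p = 0.00347), and the highest shXBP-1s array stayed below the lowest shCtrl array. MCM5 (log2 fold change -0.48, adjusted p = 9.40e-04) was read by a pair of probes that both passed, the dimmer one at -0.38. MCM7 (-0.44, adjusted p = 1.11e-04) had a dimmer probe at -0.05 that did not pass (adjusted p = 0.527). MCM4 had the smallest fall of the 6, -0.28 (SE 0.0926, adjusted p = 0.0402), and its groups only just failed to overlap, with 2.53 on the highest shXBP-1s array and 2.54 on the lowest shCtrl array.

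The loading factors gave a mixed picture. CDT1, which brings the helicase to the origin, lay at 1.81, 2.08 and 1.97 in shCtrl and at 1.43, 1.43 and 1.48 in shXBP-1s. The log2 fold change was -0.51 (SE 0.0708, adjusted p = 7.29e-04). Here the spread was in the controls, and against shCtrl replicate 1, the control on the slide of the shXBP-1s arrays, the difference was -0.36. CDC6, an ATPase that loads the helicase with CDT1, fell by 0.37 on the log2 scale (SE 0.114, adjusted p = 0.0307). ORC1, the largest subunit of the origin recognition complex, was the member that did not pass, at -0.11 (SE 0.123, adjusted p = 0.529). Its levels were -3.06, -3.12 and -3.03 in shCtrl and -2.93, -3.16 and -3.44 in shXBP-1s, so the shXBP-1s arrays lay on both sides of the controls.

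PCNA, the sliding clamp, had the smallest adjusted p of the list. Its levels were 3.28, 3.30 and 3.28 in shCtrl and 2.75, 2.74 and 2.77 in shXBP-1s, and the mean was 69.0% of that in shCtrl. The log2 fold change was -0.53 (SE 0.0400, adjusted p = 2.87e-05), and its other probe gave -0.52. The nucleotide supply genes moved less. TYMS, thymidylate synthase, fell by 0.27 on the log2 scale (adjusted p = 0.00299), and RRM2, the regulated subunit of ribonucleotide reductase, fell by 0.25 (adjusted p = 0.0367).

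With the slide as a block, 8 of the 11 S phase genes passed as lower, and all 12 remained negative. CDC6, MCM4 and RRM2 did not pass with that block, with adjusted p of 0.116, 0.0600 and 0.0591. MCM2, MCM3, MCM5, MCM6, MCM7, PCNA and CDT1 passed as lower in all 19 alternative settings. TYMS passed in 18 of the 19, CDC6 in 10, RRM2 in 8 and MCM4 in 6, so the fall of MCM4 depended on the setting. Under normexp background correction 8 S phase genes passed as lower against 11.5% of tested genes, with a list median of -0.41 where the median over all tested genes moved to -0.29.

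**Figure D2:**
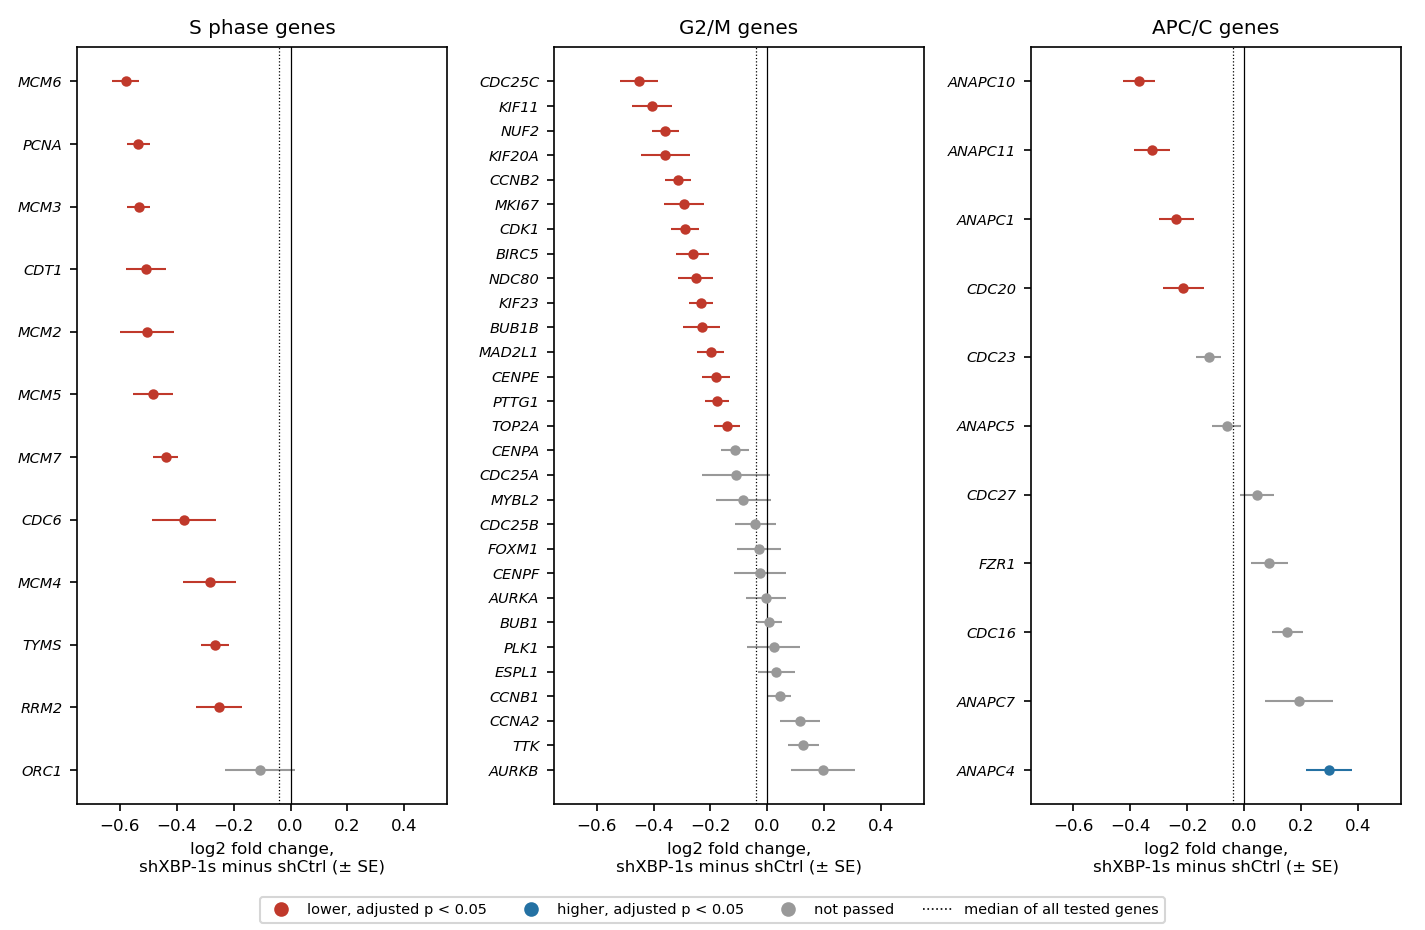
Log2 fold change of each member, shXBP-1s minus shCtrl (horizontal axis), with bars of 1 SE from the limma fit; red points passed as lower, blue as higher and grey did not pass, and the dotted line is the median of all tested genes (-0.04). Red points fill the S phase panel except ORC1, give way to grey points partway down the G2/M panel, and ANAPC4 is the only blue point.

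The G2/M genes split. Of 29 genes, 15 passed as lower, none as higher and 14 did not pass, and the median log2 fold change was -0.14. The share that was lower was 51.7% against 27.5% of all tested genes, and none was higher against 18.9%. Their mean log2 level was 0.450, 0.448 and 0.454 on shCtrl replicates 1, 2 and 3 and 0.386, 0.302 and 0.248 on shXBP-1s replicates 1, 2 and 3. The groups did not overlap for 16 genes that lay lower and 2 that lay higher, CCNB1 and TTK, against 32.2% and 24.3% of all tested genes. No G2/M gene reached a 2-fold change.

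Among the genes that start mitosis, CDC25C, the phosphatase that activates cyclin B and CDK1, fell the most. Its levels were -0.25, -0.19 and -0.32 in shCtrl and -0.59, -0.73 and -0.80 in shXBP-1s. The log2 fold change was -0.45 (SE 0.0671, adjusted p = 0.00102), with a clear gap between the groups. The paralogues CDC25A (-0.11, adjusted p = 0.494) and CDC25B (-0.04, adjusted p = 0.671) did not pass. CCNB2, cyclin B2, lay at 2.80, 2.76 and 2.82 in shCtrl and at 2.44, 2.46 and 2.53 in shXBP-1s (log2 fold change -0.31, SE 0.0459, adjusted p = 9.26e-04). CDK1, the kinase it activates, fell by 0.29 on the log2 scale (adjusted p = 0.00225). For CCNB1, cyclin B1, the brighter probe stayed at 3.27 to 3.35 on all 6 arrays (log2 fold change 0.04, adjusted p = 0.436), whereas the dimmer probe passed as lower, at -0.50 (SE 0.0485, adjusted p = 1.11e-04). The direction for CCNB1 therefore rests on the probe. CCNA2, cyclin A2, did not pass (0.11, adjusted p = 0.231), and against shCtrl replicate 1 alone its difference was 0.004.

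Motors and kinetochore proteins made up much of the rest. KIF11, the motor that pushes the spindle poles apart, lay at 0.37, 0.20 and 0.24 in shCtrl and at -0.03, -0.14 and -0.23 in shXBP-1s (log2 fold change -0.41, SE 0.0699, adjusted p = 0.00225). KIF20A, a motor of the central spindle and cytokinesis, lay at -0.05, -0.22 and -0.14 in shCtrl and at -0.34, -0.49 and -0.66 in shXBP-1s (log2 fold change -0.36, SE 0.0854, adjusted p = 0.0110). KIF23, another motor of cytokinesis, fell by 0.23 (adjusted p = 0.00274), and its dimmer probe did not pass (-0.13, adjusted p = 0.124). All 3 named motors were thus lower in shXBP-1s by their brightest probe. NUF2, a subunit of the NDC80 complex that grips microtubules, lay at -0.02, 0.02 and 0.07 in shCtrl and at -0.31, -0.35 and -0.35 in shXBP-1s. Its log2 fold change was -0.36 (SE 0.0463), with the smallest adjusted p among the G2/M genes (4.86e-04). Its partner NDC80 fell by 0.25 (adjusted p = 0.0128), and CENPE, a kinetochore motor, fell by 0.18 (adjusted p = 0.0195). The centromeric histone CENPA (-0.11, adjusted p = 0.102) and the kinetochore protein CENPF (-0.03, adjusted p = 0.852) did not pass. The dimmer probe of CENPF lay on the other side of 0, at 0.26, and did not pass either (adjusted p = 0.0801).

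The checkpoint genes BUB1B and MAD2L1 fell by 0.23 and 0.20 on the log2 scale (adjusted p = 0.0232 and 0.0101), while BUB1 (0.01) and TTK (0.13, adjusted p = 0.106), kinases of the same checkpoint, did not pass. MKI67, the proliferation antigen Ki-67, fell by 0.29 (adjusted p = 0.0105), and all 3 of its probes passed as lower. BIRC5, or survivin, a subunit of the chromosomal passenger complex, fell by 0.26 (adjusted p = 0.00801). PTTG1, or securin, which blocks separase, fell by 0.18, and TOP2A, which untangles sister DNA, fell by 0.14 (adjusted p = 0.0118 and 0.0378). The mitotic kinases AURKA (-0.01), AURKB (0.20) and PLK1 (0.02), the separase gene ESPL1 (0.03) and the transcription factors FOXM1 (-0.03) and MYBL2 (-0.08) did not pass, with SE of 0.0657 to 0.114. For these 6 genes the shXBP-1s arrays overlapped the controls. PLK1, printed above, carried the CHR letters without passing.

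With the slide as a block, 8 of the 15 G2/M genes passed as lower, and BIRC5, BUB1B, MAD2L1, MKI67, NDC80, PTTG1 and TOP2A did not. The 8 were 27.6% of the 29, near the 20.9% of all tested genes with that block. Without shXBP-1s replicate 2 the count was 9 (31%, against 21.8% of all tested genes). Under normexp it was 4 (13.8%, near the 11.5% of all tested genes) and 1 gene passed as higher. The list median under normexp was -0.13 beside -0.29 over all tested genes. CDC25C, KIF11 and NUF2 passed as lower in all 19 alternative settings. TOP2A passed in 7 of the 19 and BUB1B in 11, the fewest of the 15.

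**Figure D3:**
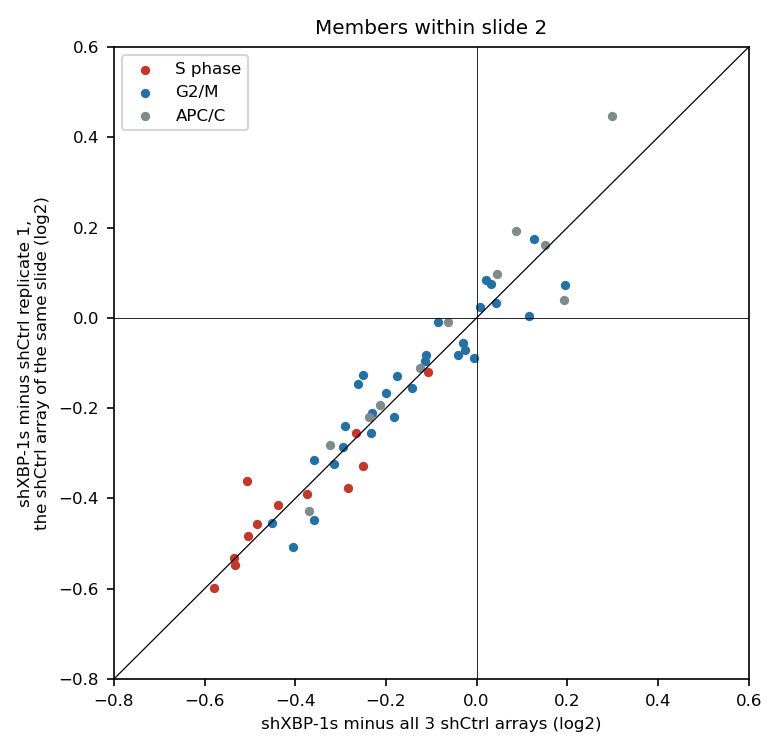
Each point is a member, with its log2 fold change against all 3 shCtrl arrays on the horizontal axis and its difference from shCtrl replicate 1, the only control on the slide of the shXBP-1s arrays, on the vertical axis (both log2); the diagonal marks equal values. Both axes share the shXBP-1s mean, and shCtrl replicate 1 enters both, so nearness to the diagonal is partly built in. Points off the diagonal include CDT1 (-0.51 and -0.36) and ANAPC4 (0.30 and 0.45) above it and ANAPC7 (0.19 and 0.04) below it.

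The APC/C genes lay near the background of the arrays. Of the 11 measured genes, 4 passed as lower, 1 as higher and 6 did not pass, with a median log2 fold change of -0.06, and that median turned positive under normexp (0.04) and under quantile normalization (0.005). The mean log2 level was 1.22 to 1.26 on the shCtrl arrays and 1.18 to 1.20 on the shXBP-1s arrays. The share that was lower was 36.4% against 27.5% of all tested genes, and the share that was higher was 9.09% against 18.9%. The groups did not overlap for 5 genes that lay lower and 2 that lay higher, against 32.2% and 24.3% of all tested genes.

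ANAPC11, the RING subunit that carries the ligase activity, lay at 4.10, 4.19 and 4.14 in shCtrl and at 3.72, 3.80 and 3.93 in shXBP-1s. Its log2 fold change was -0.32 (SE 0.0634, adjusted p = 0.00434). ANAPC10, a subunit that helps the complex hold its substrates, lay at 0.51, 0.37 and 0.47 in shCtrl and at 0.01, 0.09 and 0.14 in shXBP-1s (log2 fold change -0.37, SE 0.0564, adjusted p = 0.00117). Both genes showed a gap between the groups. ANAPC1, the largest scaffold subunit, lay at 1.96, 1.93 and 2.06 in shCtrl and at 1.84, 1.75 and 1.65 in shXBP-1s (log2 fold change -0.24, SE 0.0620, adjusted p = 0.0163), but only 2 of its 5 probes passed as lower. CDC20, the activator that starts anaphase, lay at -0.22, -0.20 and -0.17 in shCtrl and at -0.26, -0.43 and -0.54 in shXBP-1s. Its log2 fold change was -0.21 (SE 0.0716, adjusted p = 0.0445), and shXBP-1s replicate 1 lay just below the controls. CDC20 passed as lower in 4 of the 19 alternative settings and ANAPC1 in 10. ANAPC4, a scaffold subunit, was the only member of all 52 that passed as higher, from -0.41, -0.16 and -0.22 in shCtrl to -0.06, 0.02 and 0.15 in shXBP-1s. The log2 fold change was 0.30 (SE 0.0810, adjusted p = 0.0193), and the difference from shCtrl replicate 1 was 0.45. Without shXBP-1s replicate 2, and likewise without replicate 3, no APC/C gene passed as higher. The other subunits and the second activator did not pass: CDC23 gave -0.13 (adjusted p = 0.0541), ANAPC5 -0.06, CDC27 0.04, CDC16 0.15 (adjusted p = 0.0601) and ANAPC7 0.19. FZR1, the activator that keeps the complex working in G1, gave 0.09 (adjusted p = 0.322). With the slide as a block ANAPC10 was the only APC/C gene that passed as lower, and under normexp no APC/C gene passed as lower and 1 passed as higher.

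**Figure D4:**
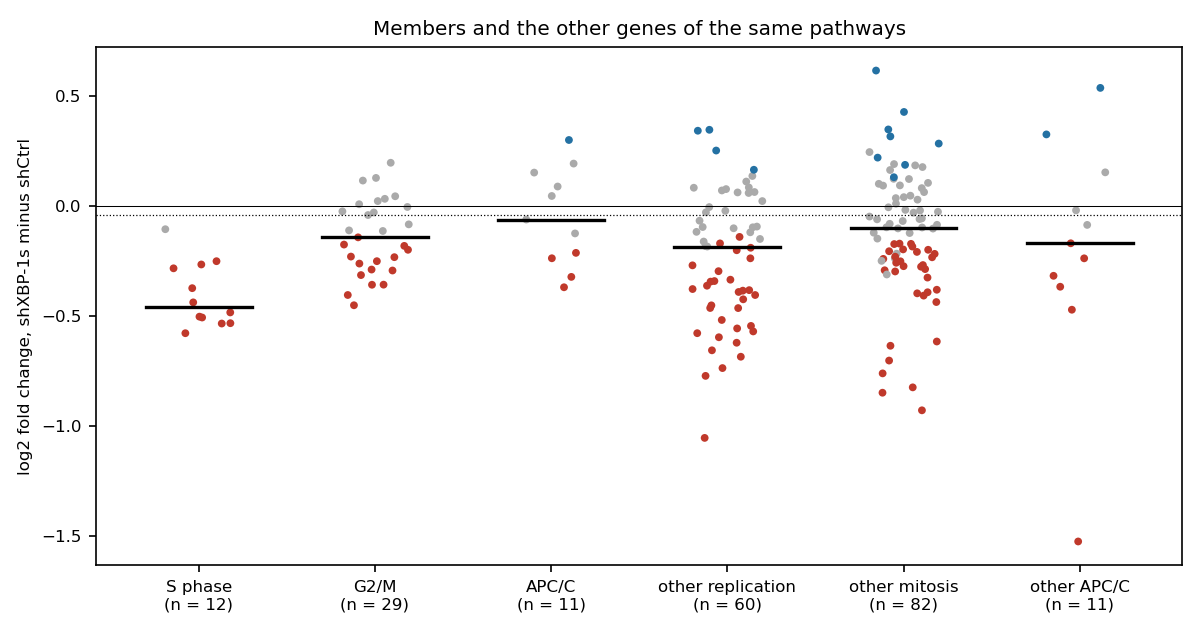
Log2 fold change, shXBP-1s minus shCtrl (vertical axis), of the tested members and of other genes of the same pathways; each point is a gene, coloured red where it passed as lower, blue where it passed as higher and grey otherwise, the bar is the list median and the dotted line the median of all tested genes. The S phase median lies lowest at -0.46, and ANAPC16 at -1.52 is the lowest point.

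The wider pathways were read from further lists written from general knowledge, also with earlier results of these data known. Of 60 other replication genes 32 (53.3%) passed as lower, 4 (6.67%) as higher and 24 did not pass, with a median of -0.19. Among all tested genes 27.5% passed as lower and 18.9% as higher. With the slide as a block 38.3% of these replication genes passed as lower, against 20.9% of all tested genes. The 4 lower genes with the smallest p were RPA1, the large subunit of the protein that coats single-stranded DNA (-1.05, and -1.80 by its dimmer probe), RFC5, a subunit of the clamp loader of PCNA (-0.69), CHAF1B, a histone chaperone at the fork (-0.74), and GMNN, geminin, the inhibitor of CDT1 (-0.56). RPA1 alone of the 60 passed 2-fold. The 4 higher genes were the origin recognition subunits ORC2 (0.34) and ORC5 (0.16), the polymerase delta subunit POLD4 (0.35) and cyclin E1, CCNE1 (0.25). The second ORC2 probe (0.06) and the second ORC5 probe (0.22) did not pass.

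Of 82 tested other mitosis genes 33 (40.2%) passed as lower, 8 (9.76%) as higher and 41 did not pass, with a median of -0.10. The shares of all tested genes were 27.5% and 18.9%. Under normexp 14.6% of these mitosis genes passed as lower, near the 11.5% of all tested genes. With the slide as a block the share was 24.4%, near the 20.9% of all tested genes. The lower ones with the smallest p were SHCBP1 (-0.93), a protein of the midbody, HMGB2 (-0.82), a chromatin protein, CENPK (-0.76), of the inner kinetochore, and BUB3 (-0.70), a partner of BUB1 and BUB1B. BUB3 had a second tested probe, for another RefSeq transcript, that passed in the opposite direction (0.26, adjusted p = 0.00184). The higher ones with the smallest p were CENPI (0.61) and CENPL (0.35), further inner kinetochore proteins, and ZW10 (0.43) and ZWILCH (0.22), which bring dynein to kinetochores; CENPI turned to -0.11 under normexp. Of 11 tested other APC/C genes 6 (54.5%) passed as lower and 2 (18.2%) as higher, against 27.5% and 18.9% of all tested genes. With the slide as a block those shares were 27.3% and 9.09%, against 20.9% and 14.7% of all tested genes. ANAPC16, a small subunit, fell past 2-fold, from -1.89, -1.88 and -1.86 in shCtrl to -3.41, -3.38 and -3.42 in shXBP-1s (log2 fold change -1.52, SE 0.0567, adjusted p = 1.91e-06). USP37, which deubiquitinates cyclin A, fell by 0.47 (its dimmer probe, at -0.16, did not pass), the subunit CDC26 fell by 0.32, and FBXO5, the inhibitor EMI1, fell by 0.24. UBE2D1, a ubiquitin-conjugating enzyme, rose by 0.54, and ANAPC2, the cullin subunit, was higher at 0.32 but lay at -0.57 under normexp.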

How the data were processed

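CAL-27 samples were grouped by their labels (shCtrl and shXBP-1s, n = 3 each). The authors deposited Agilent Feature Extraction 11.0.1.1 output, whose spot intensity is background-subtracted and not normalized between arrays, and a table of log2 values, used as an alternative, whose making is not described in the sources used here (the submitters' processing notes name RMA). The labels give a NimbleGen labelling procedure.

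Each array held 44495 spots, 1377 of them controls, with 82.1% to 84.8% well above background and none saturated. The number of arrays limits the precision. Spots flagged as outliers were dropped (230 to 377 per array), the array's 75th percentile was subtracted from the log2 signal and spots were averaged per probe. Of 34127 probes, 19 had no unflagged spot on some array, and the 27624 that were well above background throughout either group were tested with limma 3.58.1 in R 4.3.3 (lmFit, eBayes with trend), 2-sided, with Benjamini-Hochberg adjustment. The fit was tested on simulated data. An exact permutation test of 3 arrays against 3 cannot go below p = 0.1. RefSeq accessions (GRCh38.p14) named 25771 probes; array coordinates are of hg19 and were not used. Replicate numbers did not pair the samples.

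The members, lists, motifs and tests were chosen with earlier results of these data known. The text names XBP1, every member, and from each pathway list up to 4 genes with the smallest p in each direction. Per-array values are given for up to 5 members with the largest falls and 5 with the largest rises in each list; those of ORC1, MCM4, CCNB1 and of ANAPC16, CDKN1C, NFYA and NFYB were added after their values were seen. Alternatives were normexp correction (offset 50, on the median spot signal, as the files used here hold no mean), quantile normalization, both together, median scaling, other filters on dim probes, the deposited log2 values, no trend, the methods' t-test, the mean over probes, the slide or the replicate number as a block, and leaving out each array.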

Additional observations from a re-analysis of the deposited data

How the results depend on the processing

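The count of S phase genes that passed as lower (11) lay between 8 and 11 in every alternative, and none passed as higher in any. No member reached 2-fold in any alternative that was run. For G2/M genes the count that was lower (15) was 4 under normexp, 8 with the slide as a block and 9 to 15 when 1 array was left out; the count that was higher (0) was 1 under normexp, quantile normalization, the deposited log2 values and the unadjusted t-test of the methods, and 0 to 1 when 1 array was left out. For APC/C genes the count that was lower (4) was 0 under normexp, 2 under normexp with quantile normalization, quantile normalization and the deposited values, 1 with the slide as a block and 2 to 5 when 1 array was left out; the count that was higher (1) was 2 under quantile normalization, the deposited values and the mean over probes, 0 under the t-test with Benjamini-Hochberg adjustment and 0 to 2 when 1 array was left out. Fewer arrays enter the fits that leave 1 out. For the other settings the cause was not tested. The share of all tested genes that was lower moved too. It was 11.5% under normexp, 23.8% under normexp with quantile normalization, 25.2% under quantile normalization and 25.3% with the deposited values. With the slide as a block it was 20.9%, and leaving 1 array out gave 21.8% to 29.1%. The same-numbered samples correlated at -0.0158, 0.117 and -0.116 in their deviations from the group means, so the numbers were not taken as pairs. With the replicate number as a block, 10 S phase, 14 G2/M and 3 APC/C genes were lower and 1 APC/C gene was higher. There 26.3% of all tested genes were lower, near the 27.3% of the APC/C genes.

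Signs turned as follows. Under normexp they turned for the APC/C median (0.0374), AURKA (0.0720), AURKB (-0.3040), PLK1 (-0.2395), CENPF (0.2511), ESPL1 (-0.0796), ANAPC5 (0.0374), CENPI (-0.1083) and ANAPC2 (-0.5739). Under normexp with quantile normalization AURKA gave 0.0391 and CENPF 0.1723. Under quantile normalization and the deposited values the APC/C median gave 0.0046 and 0.0040, FOXM1 0.0017 and 0.0014, AURKA 0.0534 and 0.0529, CENPF 0.0452 and 0.0439, and ANAPC5 0.0046 and 0.0040. With the mean over probes CCNB1 gave -0.2264 and CENPF 0.1187. Leaving out each array in turn, the log2 fold change ran from -0.2291 to 0.0240 for ORC1, -0.2331 to 0.0177 for CDC25A, -0.0864 to 0.0287 for CDC25B, -0.1046 to 0.0424 for FOXM1, -0.1807 to 0.0057 for MYBL2, -0.0658 to 0.0542 for AURKA and -0.0058 to 0.0823 for CDC27, each of which turned without shXBP-1s replicate 3, AURKA also without shCtrl replicate 1. It ran from -0.0664 to 0.1124 for PLK1 and -0.0179 to 0.0298 for BUB1 (turned without shXBP-1s replicate 1 and without shCtrl replicate 1), from -0.0246 to 0.0811 for ESPL1 (without shXBP-1s replicate 1) and from -0.1228 to 0.0491 for CENPF (without replicate 2 of either group). CENPI and ANAPC2 had passed the test before; the others had not.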

Other observations

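Of 32 genes that regulate the cell cycle and its transcription, 12 (37.5%) passed as lower, 3 (9.38%) as higher and 17 did not pass. Among all tested genes the shares were 27.5% lower and 18.9% higher. The median log2 fold change was -0.04 for the list and for all tested genes alike. The 3 inhibitors of cyclin-dependent kinases with the smallest p were all lower: CDKN1C, or p57, at -1.11, -0.67 and -1.11 in shCtrl and -3.17, -3.22 and -3.16 in shXBP-1s (log2 fold change -2.22, SE 0.117), CDKN2D, or p19INK4D, at -1.33 (SE 0.0430), and CDKN1B, or p27, at -0.83 (SE 0.0466). The dimmer probe of CDKN1B gave -0.15 and did not pass (adjusted p = 0.202).

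NFYB and NFYA, subunits of NF-Y, the factor that binds CCAAT boxes, moved in opposite directions. They were picked for their small p, and no other subunit is described here. NFYB lay at -0.70, -0.72 and -0.64 in shCtrl and at -1.83, -1.84 and -1.71 in shXBP-1s (log2 fold change -1.10, SE 0.0566). NFYA lay at -1.39, -1.44 and -1.48 in shCtrl and at -0.73, -0.75 and -0.59 in shXBP-1s (log2 fold change 0.75, SE 0.0598), and its second probe also passed as higher (0.23, adjusted p = 0.0117). The other two that were higher were E2F5 (0.44), a repressor of the E2F family, and TFDP2 (0.41), a dimer partner of E2F factors. TFDP2 did not pass with the slide as a block (adjusted p = 0.056).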
